A study of Mus musculus with 28 samples.

Results

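The immunoglobulin genes are the source of antibody heavy and light chains, and their RNA was followed here across the tumors of 6 treatment groups. The members were the gene symbols of heavy, kappa and lambda variable (V) segments and of 12 constant genes (Ighm, Ighd, Ighg1, Ighg2b, Ighg2c, Ighg3, Igha, Ighe, Igkc, Iglc1, Iglc2 and Iglc3) with at least 1 count in any tumor. This gave 247 of 55341 genes: 8 heavy constant genes, 4 light constant genes, 122 heavy V, 110 kappa V and 3 lambda V segments. In all, 358 symbols fitted these names, with or without a count. RNA came from 28 whole subcutaneous tumors grown from the mouse mesothelioma line AB1-HA in female BALB/c mice 8 to 10 weeks old, 1 tumor per mouse, collected 7 days after treatment. AB1-HA is 1 transplanted cell line that carries an influenza hemagglutinin. All groups carried the same tumor line in the same strain, and were labelled by treatment: phosphate-buffered saline (PBS, n = 4), which served as the control, immune checkpoint blockade (ICB, n = 5), 5-FU at 75 mg/kg (n = 5), cisplatin at 6 mg/kg (n = 4), 5-FU with ICB (5-FU+ICB, n = 5) and cisplatin with ICB (cisplatin+ICB, n = 5). ICB was 1 dose of 100 µg anti-CTLA-4 and 3 doses of 100 µg anti-PD-L1, antibodies that block brakes on T cells. 5-FU is a pyrimidine analog that disturbs nucleotide synthesis, and cisplatin crosslinks DNA.

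Each B cell joins 1 heavy V segment and 1 light V segment to shorter segments and carries the joined exons, with a constant gene, in all of its descendants. Unrelated clones can use the same V segment, so a V segment in an RNA does not by itself mark a clone. Naive B cells transcribe the heavy constant genes Ighm and Ighd, and after activation a switch within the locus can place Ighg, Igha or Ighe genes behind the same V exon. Plasma cells, the antibody-secreting end stage, hold far more immunoglobulin RNA per cell than other B cells, and in tumors both cell types can sit in lymphoid aggregates or be scattered through the tissue. In RNA from whole tumors, fewer cells of a type and less RNA per cell cannot be told apart.

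The germline sequences of 5 V segments are shown because they took the largest shares of V counts in particular tumors or, for Igkv10-96, because it is the closest relative of one that did. The sequences are the coding bases of the last exon of each segment in the GENCODE M21 transcripts (build GRCm38). Where these exceeded 300 bases, only the last 300 were kept, and the positions are those of the bases shown. They run 5′ to 3′ on the coding strand and are not sequences read from the tumors. Capitals mark the bases that differ from the nearest other V segment of the same locus. Ighv9-3 lies on the minus strand at chr12:114140692-114140991 and differs from Ighv9-2 at 15 of 300 bases. Igkv10-94 (minus strand, chr6:68704508-68704805) and Igkv10-96 (minus strand, chr6:68631963-68632260) are each other's nearest segment and differ at 16 of 298 bases. Igkv16-104 (plus strand, chr6:68425774-68426072) stands further from its nearest segment, Igkv11-125, with 76 different bases of 299, and Igkv2-137 (plus strand, chr6:67555917-67556216) differs from Igkv2-109 at 33 of 300.
Ighv9-3: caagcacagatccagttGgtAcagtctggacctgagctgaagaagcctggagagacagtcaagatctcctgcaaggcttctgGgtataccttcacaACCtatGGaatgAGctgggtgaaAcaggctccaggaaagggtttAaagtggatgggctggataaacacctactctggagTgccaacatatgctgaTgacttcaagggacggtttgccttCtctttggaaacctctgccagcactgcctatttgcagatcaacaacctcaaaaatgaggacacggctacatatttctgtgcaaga
Igkv10-94: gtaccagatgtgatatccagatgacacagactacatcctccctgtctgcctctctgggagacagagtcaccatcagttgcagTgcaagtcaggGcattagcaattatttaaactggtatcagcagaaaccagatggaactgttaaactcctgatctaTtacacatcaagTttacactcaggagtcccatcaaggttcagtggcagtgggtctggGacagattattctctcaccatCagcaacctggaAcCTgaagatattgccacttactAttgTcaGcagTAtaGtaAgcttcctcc
Igkv10-96: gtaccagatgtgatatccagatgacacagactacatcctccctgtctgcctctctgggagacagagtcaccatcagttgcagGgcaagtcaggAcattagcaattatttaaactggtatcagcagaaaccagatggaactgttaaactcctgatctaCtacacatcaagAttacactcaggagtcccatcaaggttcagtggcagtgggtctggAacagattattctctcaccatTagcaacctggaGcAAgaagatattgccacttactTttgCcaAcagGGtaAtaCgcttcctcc
Igkv16-104: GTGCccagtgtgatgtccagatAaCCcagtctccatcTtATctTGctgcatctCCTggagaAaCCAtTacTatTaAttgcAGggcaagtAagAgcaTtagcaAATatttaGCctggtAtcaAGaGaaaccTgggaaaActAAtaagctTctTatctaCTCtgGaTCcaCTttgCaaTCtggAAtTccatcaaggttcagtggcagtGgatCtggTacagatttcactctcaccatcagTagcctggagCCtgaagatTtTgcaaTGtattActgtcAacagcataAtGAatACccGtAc
Igkv2-137: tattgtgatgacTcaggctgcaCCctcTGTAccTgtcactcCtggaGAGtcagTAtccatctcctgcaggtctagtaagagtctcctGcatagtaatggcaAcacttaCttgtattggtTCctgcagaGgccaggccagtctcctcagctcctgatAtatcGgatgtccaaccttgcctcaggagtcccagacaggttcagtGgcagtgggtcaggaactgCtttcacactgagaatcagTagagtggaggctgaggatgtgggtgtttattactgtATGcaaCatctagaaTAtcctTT

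The closeness of these segments bears on how reads were assigned. Of all 31-base words in the transcripts of a member, a median of 44.5% for heavy V and 47.5% for kappa V segments also occurred in the transcripts of another gene, so the counts of relatives such as Igkv10-94 (66.6% of its words shared) and Igkv10-96 (48%) are uncertain. Igkv16-104 shared 0.287% of its words. Among the constant genes, there was no shared word in Ighm, Igha, Ighe and Igkc, 1.72% in Ighg1, 9.29% in Ighg2b, 15% in Ighg2c, 19.6% in Iglc2 and 40.8% in Iglc3. The reference carries Ighg2c where BALB/c mice carry Ighg2a, and BALB/c V alleles also differ from it, so that a symbol names the nearest gene of the reference.

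Total counts per tumor ran from 23541733 to 33950805 with a median of 28797551, and 3 counts were worth 0.0821 to 0.159 CPM (counts scaled to a library total of 1000000 on effective library sizes). The 247 members together received 234265 counts, between 451 in cisplatin tumor 2 and 109100 in 5-FU+ICB tumor 5, and this 1 tumor held 46.6% of them. A count was present in every tumor for 9 members, in at least 14 tumors for 73 and in 1 tumor only for 24, of which 11 had it in 5-FU+ICB tumor 5. The constant genes took most counts, with 115650 for the heavy constant genes, 80922 for Igkc and 4794 for the lambda constants, against 8302 for heavy V, 23135 for kappa V and 1462 for lambda V segments. Segments annotated as pseudogenes took 10.9% of heavy V counts (23 segments) and 0.380% of kappa V counts (14 segments).

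5-FU+ICB tumor 5 stood apart from all others before any comparison. Its 5 listed genes of lymph node stroma and high endothelial venules, the vessels through which lymphocytes enter lymph nodes, summed to 1144 CPM, against 0.152 to 24.3 CPM in the other 27 tumors. Glycam1, a ligand made by those vessels, was at 490.6 CPM there and at most 3.74 elsewhere, and the chemokines Ccl21a and Ccl19 were at 247.4 and 349.1 CPM. The 14 B cell identity genes summed to 1425 CPM in this tumor and to at most 253.5 CPM in the others, where 5-FU tumor 3 was highest. The 4 skeletal muscle genes summed to 3963 CPM in it, with 1.52 to 2870 CPM in the other tumors. The part of this lymphoid and muscle RNA in the results was not tested, and fitted values against PBS are also given without the tumor where the gene could still be tested.

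Summed over all members, immunoglobulin RNA was low in all PBS tumors and spread widely within each group given ICB and among 5-FU tumors. The PBS tumors lay at 41.1, 61.2, 40.3 and 45.9 CPM (mean 47.1 ± 9.68 SD, n = 4). ICB tumors held 188, 153, 339, 40.8 and 91.9 CPM (162.5 ± 113.7, n = 5), and 5-FU tumors 45.0, 81.4, 588.5, 39.5 and 181 CPM (187 ± 231.5, n = 5; mean 86.8 without tumor 3). In this measure 4 of the 5 ICB tumors lay above the highest PBS tumor and the fifth among them. Cisplatin tumors held 51.6, 17.2, 17.9 and 101.9 CPM (47.1 ± 39.9, n = 4; mean 28.9 without tumor 4), on both sides of the PBS range. The 5-FU+ICB tumors lay at 367.5, 28.3, 150.5, 167.7 and 5447 CPM (1232 ± 2359, n = 5), which became 178.5 ± 140.5 (n = 4) without tumor 5, and cisplatin+ICB tumors at 25.9, 333.7, 46.8, 252.3 and 817.3 CPM (295.2 ± 320.2, n = 5; mean 164.7 without tumor 5). Of the 10 tumors with the highest sums, 8 had received ICB, but in every group at least 1 tumor was not above the PBS tumors, and 2 of 15 tumors given ICB exceeded the highest tumor without it, 5-FU tumor 3.

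**Figure D1:**
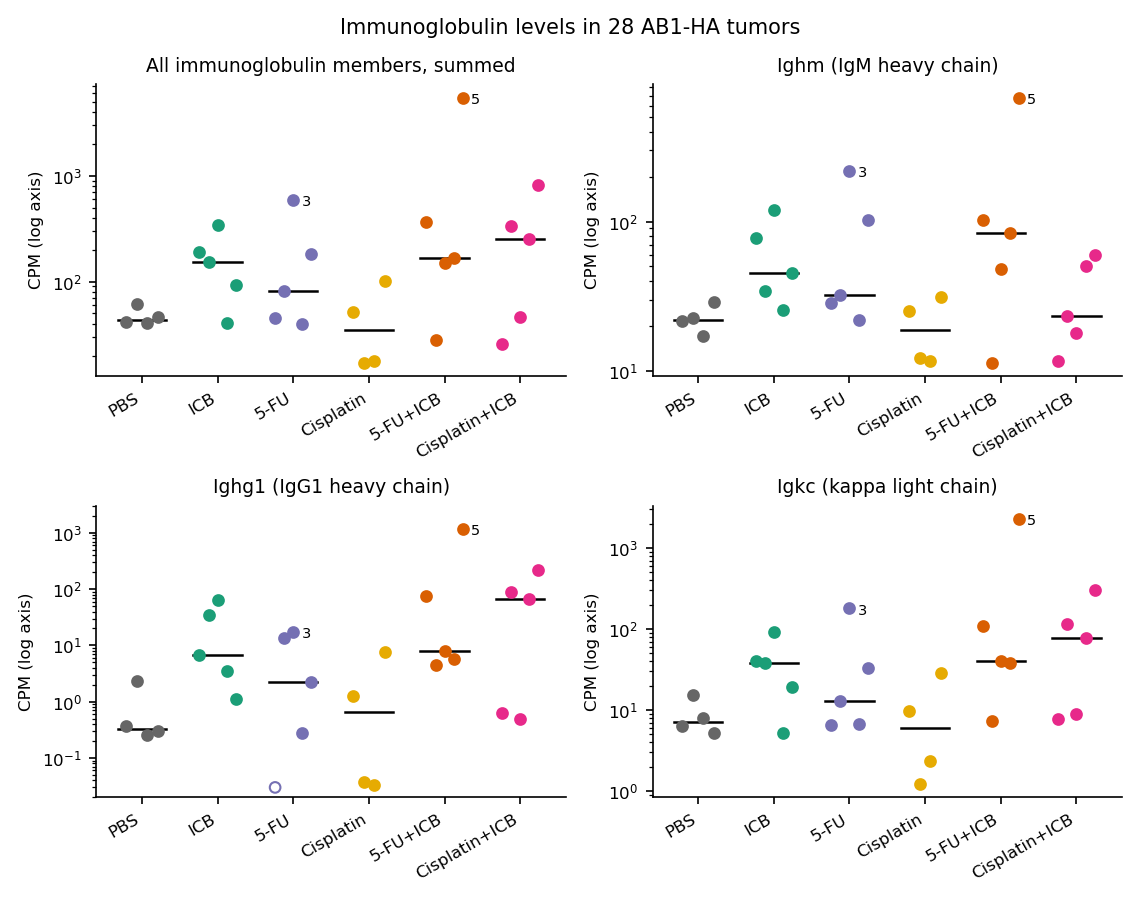
CPM on a log axis of all 247 members summed and of the constant genes Ighm, Ighg1 and Igkc, 1 point per tumor for the 6 groups, with black lines at group medians. Open circles are tumors with 0 counts, drawn at the foot of the panel; the digits 5 and 3 mark 5-FU+ICB tumor 5 (5447 CPM summed) and 5-FU tumor 3 (588.5 CPM), the highest of their groups.

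Few members could be tested one by one. Of the 247, 27 passed the filter on low counts in the matrix of PBS, ICB, 5-FU and 5-FU+ICB tumors (7 heavy constant, 4 light constant, 2 heavy V, 12 kappa V and 2 lambda V genes), and 17 in the matrix of PBS, ICB, cisplatin and cisplatin+ICB tumors (7 heavy constant, 4 light constant, 1 heavy V, 4 kappa V and 1 lambda V). Some passed only because of tumors in which they were high, so the counts below describe these genes and not all members. A gene was called at an adjusted p below 0.05 over all genes tested (edgeR, quasi-likelihood, Benjamini-Hochberg) and an absolute log2 fold change above 0.5. PBS and ICB tumors are the same in both matrices, so comparisons share them.

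Ighm, the constant gene of IgM and of the receptor of naive B cells, was present in every tumor and lay in PBS tumors at 21.4, 22.6, 17.1 and 28.8 CPM. It reached 77.2, 34.3, 119.9, 25.5 and 45.3 CPM in ICB tumors, 28.6, 32.1, 219.6, 21.8 and 103.0 in 5-FU tumors and 102.9, 11.3, 48.2, 83.3 and 676.7 in 5-FU+ICB tumors. Cisplatin tumors held 25.3, 12.1, 11.7 and 31 CPM and cisplatin+ICB tumors 11.7, 23.4, 18.0, 50.3 and 59.6. All 5 treated groups overlapped the PBS tumors for Ighm, and in 4 of 5 ICB and 4 of 5 5-FU+ICB tumors it lay above all PBS tumors. Ighm was higher in 5-FU+ICB than in PBS tumors by a log2 fold change of 3.08 (SE 0.97, adjusted p = 0.0170, edgeR), but the value without tumor 5 was 1.48 (adjusted p = 0.109). Against 5-FU alone, the log2 difference of Ighm turned from positive to -0.39 without that tumor.

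Ighd, which is spliced together with Ighm in naive B cells and lost on switching, was at 0.446, 0.271, 0.289 and 0.863 CPM in PBS tumors. All 5 5-FU tumors were above these, at 1.04, 2.16, 11.4, 0.977 and 3.98 CPM, and so were all 5 5-FU+ICB tumors, at 5.73, 0.992, 1.26, 2.91 and 260.5. The call for 5-FU+ICB against PBS held with tumor 5 (log2 fold change 6.89, SE 1.72, adjusted p = 0.00477) and without it (2.56, SE 0.84, adjusted p = 0.0231). For 5-FU alone against PBS, Ighd was at 3.06 (SE 1.5, adjusted p = 0.133) in the fit with all tumors and at 3.08 (SE 0.83, adjusted p = 0.0132) once tumor 5 of 5-FU+ICB was left out of the fit, which shares 1 estimate of spread over its groups. Of the counts of Ighm and Ighd together, Ighd made up 1.18% to 2.91% in PBS tumors, 3.51% to 6.30% in 5-FU tumors, 15.3% in cisplatin tumor 4 and 27.8% in 5-FU+ICB tumor 5.

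Ighg1, the constant gene of IgG1, spread widely between tumors. The PBS tumors lay at 0.365, 2.30, 0.253 and 0.299 CPM, and the ICB tumors at 6.74, 34.3, 65.2, 3.56 and 1.10 CPM. Cisplatin+ICB tumors held 0.636, 90.1, 0.5, 67.8 and 220.8 CPM and 5-FU+ICB tumors 74.8, 4.4, 7.82, 5.66 and 1162 CPM. Every 5-FU+ICB tumor, 4 of 5 ICB tumors and 3 of 5 cisplatin+ICB tumors exceeded the highest PBS tumor. Without ICB the values were 0, 13.5, 17.3, 0.275 and 2.22 CPM in 5-FU tumors, where 0 counts allow up to 3 counts, and 1.28, 0.0381, 0.0335 and 7.55 CPM in cisplatin tumors. Ighg1 rose in 5-FU+ICB against PBS (log2 fold change 8.27, SE 2.27, adjusted p = 0.00807, edgeR), also without tumor 5 (4.79, SE 1.66, adjusted p = 0.0299). Its log2 fold change was 4.75 for ICB against PBS (SE 1.97, adjusted p = 0.0603), which passed once 5-FU+ICB tumor 5 was left out of the fit (4.75, SE 1.63, adjusted p = 0.0248), and 6.56 for cisplatin+ICB against PBS (SE 1.96, adjusted p = 0.0549).

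The other IgG genes reached lower maxima than Ighg1, but exceeded it in several tumors. Ighg2b had 16, 54 and 12 counts against 9, 7 and 9 of Ighg1 in PBS tumors 1, 3 and 4. It also exceeded Ighg1 in 5-FU tumors 1 and 4, cisplatin tumors 2 and 3 and cisplatin+ICB tumor 3. Ighg2c had 93 counts against 29 of Ighg1 in ICB tumor 5. Ighg2c lay at 0.324, 0.203, 0.903 and 0.332 CPM in PBS tumors and at 0.212, 15.8, 0.442, 2.32 and 45.3 CPM in cisplatin+ICB tumors, of which 3 of 5 were above all PBS tumors. It was the only member called in cisplatin+ICB against PBS (log2 fold change 4.87, SE 1.40, adjusted p = 0.0474, edgeR), and the call was lost when any 1 of the 4 PBS tumors or of cisplatin+ICB tumors 2, 4 and 5 was left out (log2 fold change 3.43 without cisplatin+ICB tumor 5). The share of all genes called fell as well, from 6.10% to 0% without PBS tumor 1, 3 or 4 and 4.35% without PBS tumor 2. It fell to 1.4%, 1.5% and 2.04% without cisplatin+ICB tumors 2, 4 and 5. In 5-FU+ICB against PBS, Ighg2b (3.57, SE 1.37, adjusted p = 0.0421), Ighg2c (4.78, SE 1.5, adjusted p = 0.0163) and Ighg3 (4.47, SE 1.54, adjusted p = 0.0259) were also called on the log2 scale, and none of these 3 was called without tumor 5 (0.56, 1.29 and 2.17), which held 49.7, 54.0 and 16.8 CPM of them. The 39.4 CPM of Ighg2b in cisplatin+ICB tumor 5 was the next highest value of that gene.

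Igha, the constant gene of the mucosal isotype IgA, was at 6.57, 9.32, 7.51 and 5.84 CPM in PBS tumors and in 5-FU+ICB tumor 5 stood at 11.8 CPM, within the 0.651 to 28.2 CPM of the other 5-FU+ICB tumors. Its highest value was 46.3 CPM in 5-FU tumor 3, and its log2 fold change in 5-FU+ICB against PBS was 0.95 (SE 0.83, adjusted p = 0.358, edgeR) and stayed uncalled without tumor 5 (adjusted p = 0.37). Ighe, the constant gene of IgE, had a count in 9 of 28 tumors and did not pass the filter. It was at 16.8 CPM in 5-FU+ICB tumor 5, 1.08 in 5-FU+ICB tumor 1 and at most 0.237 in the rest.

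Expressed as shares of the counts of the 8 heavy constant genes, IgG genes had higher means in the groups given ICB, with wide spread between their tumors. The IgG genes took 7.46 ± 4.08% in PBS (SD, n = 4), 22.2 ± 14.9% in ICB (n = 5) and 44.7 ± 35.7% in cisplatin+ICB tumors (n = 5). Without ICB they took 9.39 ± 10.0% in 5-FU (n = 5; mean 5.10% without tumor 2) and 8.01 ± 6.77% in cisplatin tumors (n = 4; mean 4.94% without tumor 4). In 5-FU+ICB tumors the share was 29.0 ± 19.6% (n = 5) and 22 ± 13.6% without tumor 5 (n = 4). In 8 of the 15 tumors given ICB the IgG share lay above the highest of the 13 tumors without it, 26.6% in 5-FU tumor 2. These were ICB tumors 2 (42.6%) and 3 (33.5%), 5-FU+ICB tumors 1 (38.7%), 2 (27.3%) and 5 (57.1%) and cisplatin+ICB tumors 2 (72.1%), 4 (57.7%) and 5 (80.5%). Of these, ICB tumor 2 held 446.4 CPM of skin genes, against at most 20.3 CPM in any other tumor, and ICB tumor 3 held 2870 CPM of skeletal muscle genes, against at most 207 CPM in the other ICB tumors. The part of this RNA was not tested. The remaining 7 lay between 5.71% and 13.7%, inside the range of untreated and chemotherapy-only tumors. Per kilobase of the shortest transcript, IgG exceeded IgM in 6 tumors, all given ICB, among them cisplatin+ICB tumor 5 with 83.9% IgG and 11.9% IgM.

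IgM took 68.5 ± 8.27% of heavy constant counts in PBS tumors and 43.0 ± 30.8% in cisplatin+ICB tumors, with 7 of 15 tumors given ICB below the lowest tumor without it (54.9%, cisplatin tumor 4). IgA took 22.6 ± 4.93% in PBS tumors and lower means elsewhere, 13.3 ± 5.15% in ICB, 11.5 ± 3.88% in 5-FU and 14.3 ± 3.61% in cisplatin tumors, and in 5-FU+ICB tumor 5 only 0.524%. In the combination groups the IgA share spread widely. In 5-FU+ICB tumor 3 (31.5%) and cisplatin+ICB tumor 3 (32.7%) it lay above the highest PBS tumor (26.8%, tumor 3). All 5 5-FU tumors were below all 4 PBS tumors in the IgA share, with a highest value of 15.5% against a lowest of 16.0%. Of the IgG counts, Ighg1 made up 8.05% to 60.2% in PBS tumors and 91.9% in 5-FU tumor 2. It made up 88.8% to 94.4% in ICB tumors 2, 3 and 4, and 5-FU+ICB tumors 1, 2 and 5, but 79.1% and 72% in cisplatin+ICB tumors 2 and 5, where Ighg2b and Ighg2c were also high. In ICB tumors 1 and 5 it made up 43.2% and 18.9%, in 5-FU+ICB tumors 3 and 4 65.7% and 59.4%, and in cisplatin+ICB tumors 1, 3 and 4 63.2%, 29.3% and 86.9%. No test was made on these shares.

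**Figure D2:**
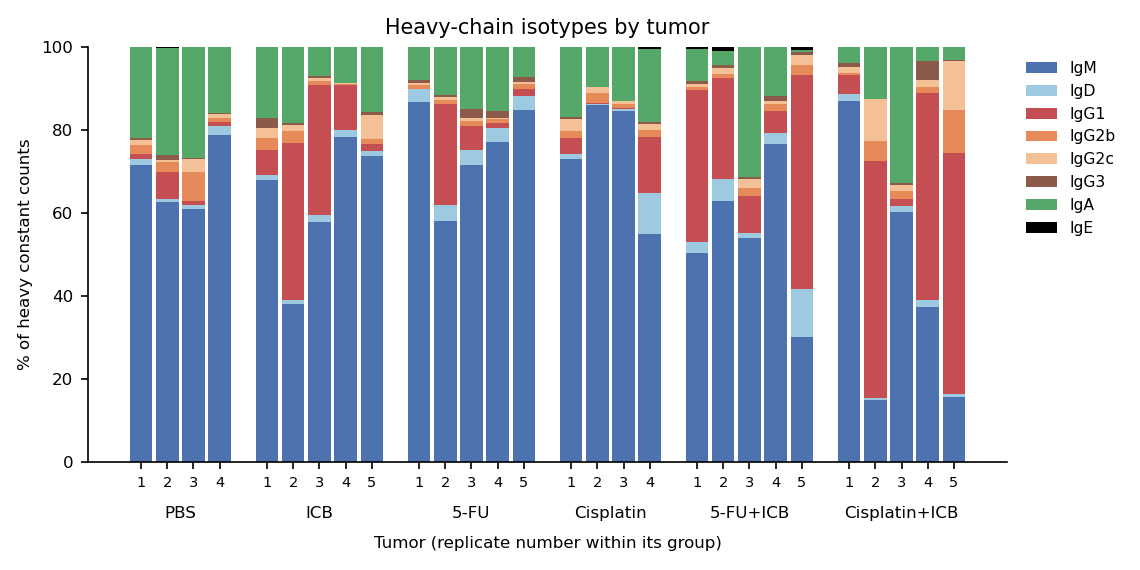
Percent of the counts of the 8 heavy constant genes taken by each isotype, 1 bar per tumor, in 6 groups. IgG1 (red) fills 57.0% and 58.0% of the bars of cisplatin+ICB tumors 2 and 5 and at most 6.38% in PBS tumors, while IgM (blue) fills 60.9% to 78.7% in PBS tumors.

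Among the light chains, Igkc, the sole kappa constant gene, also spread widely within the treated groups. It lay at 6.36, 15.3, 7.91 and 5.28 CPM in PBS tumors, 39.8, 38.1, 91.5, 5.18 and 19.1 in ICB tumors and 7.68, 114.7, 8.86, 76.5 and 307.6 in cisplatin+ICB tumors. In 5-FU tumors it was at 6.60, 13.1, 180.0, 6.69 and 33.3 CPM, and in 5-FU+ICB tumors at 107.7, 7.41, 40.3, 38.3 and 2268 CPM. In each of these groups at least 1 tumor was not above the PBS tumors. Igkc was called in 5-FU+ICB against PBS (log2 fold change 5.84, SE 1.66, adjusted p = 0.00956, edgeR), and was at 2.47 (adjusted p = 0.0678) without tumor 5. For cisplatin+ICB against PBS its log2 fold change was 3.58 (SE 1.14, adjusted p = 0.0679).

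The lambda constants Iglc1, Iglc2 and Iglc3 differed in level from Igkc between groups. They were called in 5-FU+ICB against PBS (log2 fold changes 4.02, 4.77 and 4.19, adjusted p = 0.0437, 0.0140 and 0.0126), and none of them without tumor 5 (0.67, 2.04 and 1.44). In 5-FU tumor 3, Iglc1 was at 19.1 CPM, close to the 23.9 CPM of 5-FU+ICB tumor 5, although Igkc was at 180.0 CPM in the former and 2268 CPM in the latter. Per kilobase, kappa made up 74.8 ± 4.78% of light constant RNA in 5-FU tumors (SD, n = 5) and 86.7 ± 4.06% in PBS tumors (n = 4), and the groups did not overlap, with 69.6% to 81.9% against 83.4% to 92.1%. The share was 90.0 ± 4.68% in ICB, 92.4 ± 3.05% in 5-FU+ICB and 92.5 ± 7.07% in cisplatin+ICB tumors, and 54.3% to 87.9% in cisplatin tumors. Without 5-FU+ICB tumor 5 in the fit, Iglc1, Iglc2 and Iglc3 were called in 5-FU against PBS, at log2 fold changes of 3.87, 3.14 and 2.46.

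Read over all members tested, the calls in single comparisons stood as follows. In 5-FU+ICB against PBS, 23 of 27 members were higher and none lower, where 21.9% of all genes tested were called higher and 40.7% in either direction. Their median log2 fold change was 4.78 (4.77 with Iglv2, which has no count in PBS tumors, at its bound), against -0.04 over all genes. For 4 of the 27 (Ighd, Ighg1, Igkv14-111 and Iglv2) all 5-FU+ICB tumors lay above all PBS tumors, which held for 10.9% of all genes tested. For Iglv2 this rests on 1 count in each of 2 5-FU+ICB tumors against 0 in PBS tumors, less than the 3 counts that 0 counts allow. DESeq2, run without the filter, called 50 members here and 34.7% of all genes. Without 5-FU+ICB tumor 5, 4 of 21 members tested were called higher (Ighd, Ighg1, Igkv10-96 and Igkv6-15), where 18.8% of all genes were, and the median log2 fold change was 1.77. Once the tumor was left out, the share of members called was near that of all genes.

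In ICB against PBS, 1 of 27 members was called, Igkv10-94, where 37.8% of all genes were called in either direction and 19.0% higher. Without 5-FU+ICB tumor 5 in the shared fit, 3 of 21 were called higher, where 20.6% of all genes were, with Ighg1 and the segment Ighv9-3 (log2 fold change 4.23, SE 1.53, adjusted p = 0.0318) besides Igkv10-94. DESeq2 called 4 members and 33.4% of all genes. In 5-FU against PBS, 0 of 27 were called by edgeR, where 23.0% of all genes were called in either direction and 9.98% higher. Of the 27, 4 nevertheless had an unadjusted p below 0.05, and all 27 log2 fold changes were positive (median 2.46). DESeq2 called 5 members and 24.9% of all genes. Without 5-FU+ICB tumor 5, 4 of 21 were called higher here, Ighd and the 3 lambda constants, where 12.3% of all genes were.

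The cisplatin groups gave few calls. In cisplatin against PBS, 0 of 17 members were called, where 0% of all genes were, with none at an unadjusted p below 0.05 and none called by DESeq2, which called 0.00571% of all genes. In cisplatin+ICB against PBS, 1 of 17 was called (Ighg2c), where 6.10% of all genes were called and 4.70% higher, with 8 of 17 at an unadjusted p below 0.05. DESeq2 called 9 members and 10.1% of all genes. Between treated groups edgeR called no member: 0 of 27 in 5-FU+ICB against ICB (0.229% of all genes, 17 members at an unadjusted p below 0.05, 12 called by DESeq2), 0 of 27 in 5-FU+ICB against 5-FU (0.0112%, 14 and 8), 0 of 17 in cisplatin+ICB against ICB (0%, 3 and 0) and 0 of 17 in cisplatin+ICB against cisplatin (0%, 9 and 7). Over all genes DESeq2 called 1.68%, 2.97%, 0.265% and 4.20% in these 4 comparisons.

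**Figure D3:**
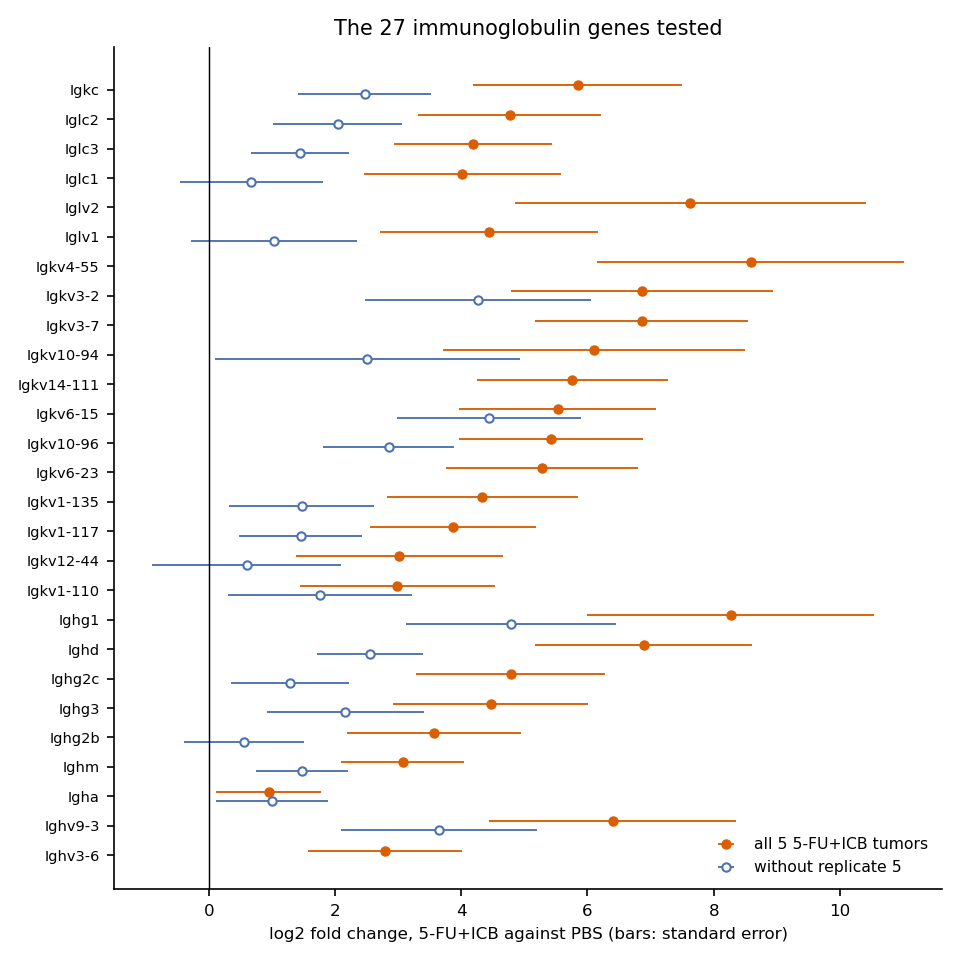
Log2 fold change of the 27 immunoglobulin genes tested in 5-FU+ICB against PBS (edgeR; bars are the standard error), with all 5 tumors (filled) and for the 21 still tested without tumor 5 (open). All filled points lie right of 0, between 0.95 for Igha and 8.59 for Igkv4-55, and most open points lie nearer to 0.

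The V segments in use differed from tumor to tumor. Heavy V counts ran from 5 to 3562 per tumor and kappa V counts from 18 to 12444, so shares in shallow tumors are coarse, and the 95% Wilson intervals below cover counting error only, since reads are not independent molecules. Ighv9-3 was the top heavy V segment in 9 of 28 tumors, 8 of them given ICB and the other PBS tumor 2, where 10 of 56 counts came from it. It took 423 of 544 heavy V counts in cisplatin+ICB tumor 4 (77.8%, interval 74.1% to 81.1%), 184 of 354 in ICB tumor 1 (52.0%, 46.8% to 57.1%) and 115 of 307 in ICB tumor 2 (37.5%, 32.2% to 43.0%). In 5-FU+ICB tumor 1 it took 126 of 415 (30.4%), in cisplatin+ICB tumor 5 302 of 1045 (28.9%) and in 5-FU+ICB tumor 5 814 of 3562 (22.9%). Of 15 tumors given ICB, 7 exceeded the highest share without it, 20.0% in cisplatin tumor 3, which is 1 count of 5.

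Igkv10-94 was the top kappa V segment in 3 tumors, and these were the same 3 in which Ighv9-3 took its largest shares. It took 311 of 636 kappa V counts in cisplatin+ICB tumor 4 (48.9%, 45.0% to 52.8%), 175 of 392 in ICB tumor 1 (44.6%, 39.8% to 49.6%) and 66 of 403 in ICB tumor 2 (16.4%, 13.1% to 20.3%). In the other 25 tumors its share was at most 3.20%, in cisplatin+ICB tumor 2, and without ICB at most 1.91%, in cisplatin tumor 4. The groups overlapped, since 10 of the 15 tumors given ICB were not above that value. Bulk counts do not pair a heavy with a light chain, so whether both segments lie in the same cells was not measured. In CPM, Igkv10-94 stood at 5.96, 1.88, 0.434, 0 and 0.0378 in ICB tumors and at 0, 0, 0 and 0.0332 in PBS tumors, which is 253 counts against 1 in all, a ratio of 190 (counting interval 33.8 to 7535). Of these 253 counts, 175 came from ICB tumor 1, so the ratio rests largely on that tumor. It was called higher in ICB than in PBS (adjusted p = 0.0249, edgeR), where 3 of 5 ICB tumors had 11 or more counts, and the call was lost without ICB tumor 1 (adjusted p = 0.0649) and without any 1 of the PBS tumors.

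**Figure D4:**
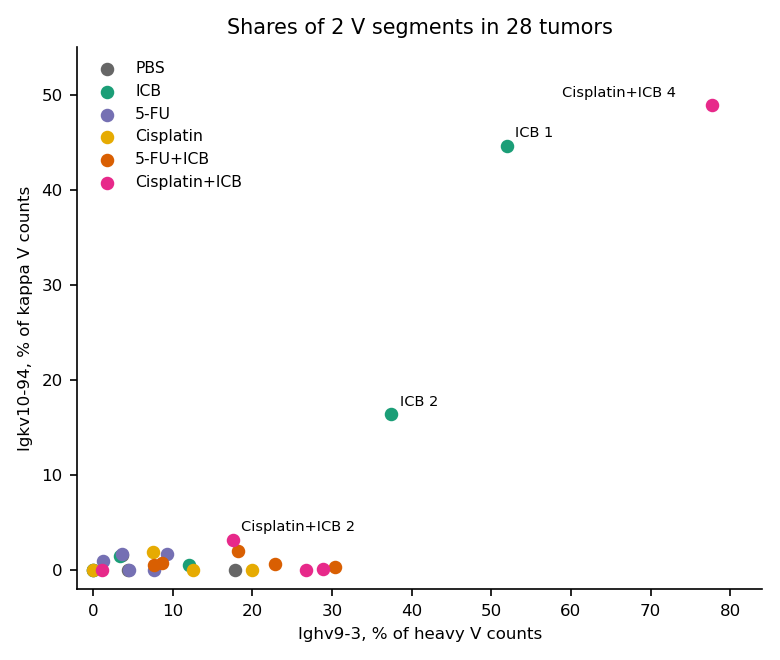
Share of Ighv9-3 among heavy V counts (x axis, %) against share of Igkv10-94 among kappa V counts (y axis, %), 1 point per tumor, coloured by group. ICB tumors 1 and 2 and cisplatin+ICB tumor 4 lie above 16% on the y axis and above 37% on the x axis, and the other 25 tumors lie at or below 3.20% on the y axis.

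Other tumors had other leading segments. Igkv16-104 took 456 of 736 kappa V counts in ICB tumor 3 (62.0%, 58.4% to 65.4%), and Igkv2-137 took 843 of 1342 in cisplatin+ICB tumor 2 (62.8%, 60.2% to 65.4%), where Ighv1-69 (25.7%), Ighv1-64 (24.2%) and Ighv9-3 (17.6%) led the heavy V counts. In cisplatin+ICB tumor 5 the kappa counts were led by Igkv3-12 (25.6%) and Igkv14-111 (16.1%), and in ICB tumor 5 by Igkv3-5 (29.3%). Of these tumors, cisplatin+ICB tumor 5 had the second highest immunoglobulin sum of all. The leading kappa segment of 5-FU+ICB tumor 5, which had the highest, was Igkv4-55 with 1415 of 12444 counts (11.4%), and in 5-FU tumor 3 the leading segments took 15.3% (Igkv4-53) and 9.33% (the heavy segment Ighv3-8). Over the 28 tumors, 18 heavy and 19 kappa segments led at least 1 tumor, ties being given to 1 segment, and Igkv1-110 led among kappa segments in 6, in 2 of them tied with another segment.

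The effective number of segments, the exponential of the Shannon entropy of their shares, gives 1 number per tumor and equals the number of segments when all have the same share. It was 3.05 for heavy V in cisplatin+ICB tumor 4, 5.84 in ICB tumor 1 and 9.62 in cisplatin+ICB tumor 2, against 41.2 in 5-FU tumor 3 and 35.4 in 5-FU+ICB tumor 5. For kappa V it was 4.71 in cisplatin+ICB tumor 2, 6.66 in ICB tumor 1, 7.52 in ICB tumor 3, 10.2 in cisplatin+ICB tumor 4 and 12.3 in cisplatin+ICB tumor 5, against 35.3 in 5-FU tumor 3, 42.3 in 5-FU+ICB tumor 5 and 15.2 to 21.4 in PBS tumors. Because the number grows with depth, counts were also thinned to 50 per tumor. This leaves out tumors with fewer counts, such as cisplatin tumors 2 and 3, whose low numbers of 7.24 and 11.7 for kappa V come from 18 and 20 counts. For kappa V the thinned numbers were 3.97, 5.35, 5.51, 7.41 and 9.24 in the 5 tumors with few segments, 20.8 and 22.1 in 5-FU tumor 3 and 5-FU+ICB tumor 5, and 13.4 to 19.4 in PBS tumors. For heavy V the thinned numbers were 2.58, 4.79 and 7.39 in the 3 lowest tumors, and 24.8 and 17.9 in 5-FU tumor 3 and 5-FU+ICB tumor 5, with 18.6 in PBS tumor 2, the only PBS tumor deep enough.

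As groups, Pielou evenness (entropy over its largest possible value) of heavy V segments was 0.938 ± 0.0336 in PBS (SD, n = 4), 0.893 ± 0.0338 in 5-FU (n = 5), 0.944 ± 0.0315 in cisplatin (n = 4), 0.770 ± 0.173 in ICB (n = 5), 0.852 ± 0.0821 in 5-FU+ICB (n = 5; 0.871 ± 0.0814 without tumor 5) and 0.698 ± 0.247 in cisplatin+ICB tumors (n = 5). For kappa V the means were 0.885 ± 0.0558, 0.897 ± 0.0432, 0.888 ± 0.0509, 0.709 ± 0.184, 0.841 ± 0.0512 (0.848 ± 0.0560 without tumor 5) and 0.702 ± 0.222 in the same order. The lowest means belonged to ICB and cisplatin+ICB tumors in both loci, and there the spread between tumors was also widest, so that single tumors of these groups remained as even as PBS tumors. The tumors differed in V depth, and at equal depth the kappa V mean of 5-FU+ICB tumors was not below that of PBS tumors (0.947 and 0.938 at the lowest tumor total).

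**Figure D5:**
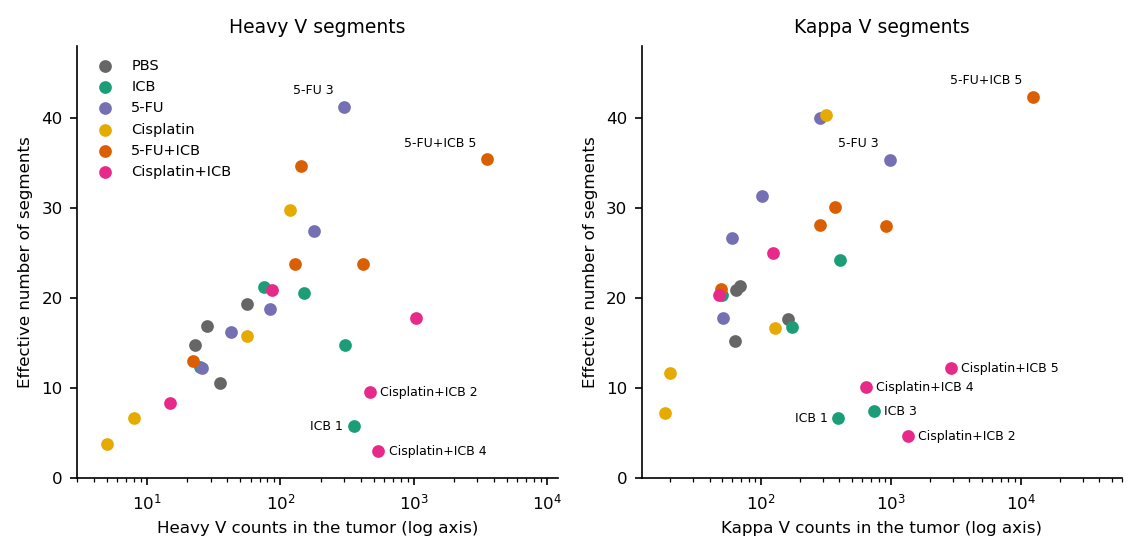
Effective number of V segments (y axis) against the V counts of the tumor (x axis, log scale), for heavy V (left) and kappa V (right), 1 point per tumor coloured by group. Tumors given ICB alone or with cisplatin reach low numbers at high counts, such as 3.05 for heavy V in cisplatin+ICB tumor 4, while 5-FU tumor 3 and 5-FU+ICB tumor 5 lie at 35.3 or above in both panels.

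In 5-FU+ICB against PBS, 10 of 12 kappa V segments tested were called higher, where 21.9% of all genes were, and some of the 12 passed the filter only with tumor 5. Igkv4-55 (log2 fold change 8.59, SE 2.43, adjusted p = 0.00952), Igkv14-111 (5.76, SE 1.51, adjusted p = 0.00628), Igkv6-15 (5.53, SE 1.56, adjusted p = 0.00925) and Igkv10-96 (5.42, SE 1.46, adjusted p = 0.00714) were among them, and Igkv6-15 (4.45, SE 1.46, adjusted p = 0.0229) and Igkv10-96 (2.85, SE 1.03, adjusted p = 0.0365) kept their calls without tumor 5. Igkv4-55 and Igkv14-111 did not pass the filter without it. For 3 segments there were 1 or 2 counts in all PBS tumors together, and their folds are given as count ratios: 120 for Igkv3-7 (interval 33.1 to 999), 109 for Igkv3-2 (29.97 to 908) and 76.5 for Igkv10-94 (13.4 to 3052), or 62.7, 22.2 and 7.71 without tumor 5. Ighv9-3 was called with a log2 fold change of 6.4 (SE 1.95, adjusted p = 0.0142), and not without tumor 5 (3.65, SE 1.55, adjusted p = 0.0673). Of the lambda segments, Iglv1 was called (4.44, SE 1.73, adjusted p = 0.0441) and not without tumor 5 (1.03, adjusted p = 0.544), and Iglv2, at 0 counts in PBS tumors, was at least 24.9-fold higher against a floor of 3 counts over the group, or at least 4.18-fold without tumor 5. Iglv3 did not pass the filter.

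Genes of the cells that make antibody were looked at as lists chosen with earlier results of these data known. Of 16 plasma cell and secretion genes 15 were tested, and in 5-FU+ICB against PBS 8 were higher and 1 lower, where 21.9% of all genes were called higher, and 18.8% without tumor 5. Jchain, which joins IgM and IgA into polymers (log2 fold change 5.74, SE 1.74, adjusted p = 0.0134), and Mzb1, an endoplasmic reticulum protein of plasma cells (6.13, SE 1.70, adjusted p = 0.00847), were among those higher. Without tumor 5, Jchain was at 1.95 (adjusted p = 0.154) and Mzb1 at 1.65 (adjusted p = 0.132), and the count was 3 higher (Irf4, Pou2af1 and Derl3) and 1 lower (Fkbp11). Of 14 B cell identity genes 12 were higher and 0 lower, and 8 without tumor 5, among them Ms4a1, which encodes CD20 (2.99, SE 1.06, adjusted p = 0.0332). Of 12 germinal centre and class switch genes 11 were tested, with 5 higher and 1 lower, and the same counts among 10 tested without tumor 5. Cxcl13, a chemokine that draws B cells into follicles, was among them (3.31, SE 0.91, adjusted p = 0.00818, and 2.94, adjusted p = 0.0172, without tumor 5).

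In ICB against PBS the plasma cell list gave 3 higher and 2 lower of 15 (5 higher without 5-FU+ICB tumor 5 in the fit), the B cell list 1 higher (Cd22) of 14 (without 5-FU+ICB tumor 5 in the fit 2 higher and 1 lower) and the germinal centre list 4 higher and 1 lower of 11. Of the genes that act on switching or bind antibody, where 19.0% of all genes were called higher, 4 of 7 cytokines were higher, with Ifng, which directs switching towards IgG2 isotypes, at a log2 fold change of 5.26 (SE 0.57, adjusted p = 2.44e-05), and 5 of 6 antibody receptor genes, with the IgG2 receptor Fcgr4 at 3.03 (SE 0.57, adjusted p = 0.000949). In 5-FU against PBS the plasma cell list gave 2 higher of 15, the B cell list 2 of 14 and the germinal centre list 1 of 11, where 9.98% of all genes were called higher and 23.0% in either direction. Without 5-FU+ICB tumor 5 in the fit the B cell list gave 11 of 14 higher and the germinal centre list 3 of 10, where 12.3% of all genes were. In cisplatin+ICB against PBS, 1 plasma cell gene was higher and 1 lower of 15. Of 13 B cell genes 1 was higher, and of 11 germinal centre genes 1, where 4.70% of all genes were called higher. In cisplatin against PBS edgeR called 0 of the 39 genes tested in these 3 lists, with 2 at an unadjusted p below 0.05, and between treated groups 0 of 39 or 40, with 10 to 25. Of the B cell precursor list, 3 of 8 genes were tested, and the 2 that were higher in ICB, 5-FU and 5-FU+ICB against PBS, Erg and Cd93, are also genes of blood vessels, whereas Rag1, which cuts the loci in precursors, was at most 0.055 CPM.

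Jchain followed the member sums, with 9 of its 10 highest tumors also among the 10 with the highest sums. The tumors nevertheless differed in their mix. Cisplatin+ICB tumor 2 had 90.1 CPM of Ighg1 and 21.7 CPM of Jchain, while 5-FU tumor 3 had 17.3 CPM of Ighg1 and 35 CPM of Jchain. Cd79a, part of the B cell receptor complex, was at 12.2 to 14.8 CPM in PBS tumors and at 3.17 to 7.73 CPM in ICB tumors, below all of them. It was called lower in ICB once 5-FU+ICB tumor 5 was left out of the fit (log2 fold change -1.37, SE 0.36, adjusted p = 0.00555, edgeR) and not before (-1.37, SE 0.90, adjusted p = 0.226).

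Genes of other cells in the samples moved with some of these values. All 6 T cell genes were higher in ICB and in 5-FU+ICB against PBS, and 5 of 6 in 5-FU and in cisplatin+ICB. Of all genes tested, 19.0% were called higher in ICB, 21.9% in 5-FU+ICB, 9.98% in 5-FU and 4.70% in cisplatin+ICB. Without 5-FU+ICB tumor 5 in the fit, the shares were 20.6% in ICB, 18.8% in 5-FU+ICB and 12.3% in 5-FU. The lists that follow are to be read beside these shares. The macrophage list gave 4 of 4 higher in ICB, 2 of 4 in 5-FU and in 5-FU+ICB and 1 of 4 in cisplatin+ICB. The lymph node stroma list gave 4 of 4 tested higher in 5-FU+ICB (3 without tumor 5) 1 of 4 in 5-FU (3 without 5-FU+ICB tumor 5 in the fit) and 0 of 4 by edgeR in ICB, with 1 at an unadjusted p below 0.05 (1 called without that tumor). It summed to 0.433 to 1.18 CPM in PBS, 0.152 to 14.3 in ICB, 1.29 to 24.3 in 5-FU and 2.82 to 18.3 CPM in 5-FU+ICB tumors other than tumor 5. Over the 9 comparisons with all tumors, edgeR called 0 of the skeletal muscle, skin or liver and blood genes, with 0 of 36, 5 of 27 and 5 of 23 tests at an unadjusted p below 0.05. The muscle genes nevertheless summed to 757.5 to 1189 CPM in 4 of 5 5-FU tumors and 461.1 to 3963 CPM in 4 of 5 5-FU+ICB tumors, against 89.8 to 149.8 CPM in PBS tumors. The liver and blood genes summed to 27.7 to 77.9 CPM in PBS and 1.51 to 72.3 CPM in 5-FU tumors. In 5-FU+ICB tumors they summed to 4.87 to 11.9 CPM without tumor 5, which held 59.3 CPM. Without that tumor, 1 of 3 liver and blood genes was called lower in 5-FU+ICB against PBS. Of the mesothelial genes that mark the tumor cells, 1 of 3 tested was higher in ICB, 5-FU and cisplatin+ICB, and 2 higher with 1 lower in 5-FU+ICB. Without 5-FU+ICB tumor 5 in the fit, 1 was higher and 1 lower in each of ICB, 5-FU and 5-FU+ICB. The list summed to 271.6 to 358.2 CPM in PBS, 54.3 to 216.9 CPM in ICB, 46.6 to 177.3 CPM in 5-FU and 37.3 to 168.1 CPM in 5-FU+ICB tumors, so that these 3 groups lay below all PBS tumors. Cisplatin+ICB tumor 1 stood apart, with the liver and blood genes at 564.3 CPM against 34.0 to 161.4 CPM and the mesothelial genes at 655 CPM against 131.6 to 266.2 CPM in the other cisplatin+ICB tumors. Without it, 8 of 17 members and 35.3% of all genes were called in cisplatin+ICB against PBS. The part of these cells in the immunoglobulin values was not tested.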

How the data were processed

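RNA from whole tumors was sequenced and the authors estimated counts per transcript with kallisto 0.46.0, after base calling with bcl2fastq 2.20.0.422 and against GRCm38 transcripts, and summarised them to genes. The authors deposited these estimated counts, not normalized, in 2 matrices, each with the same PBS and ICB tumors. Kallisto divides reads that fit several V segments by estimation, so counts of similar segments are uncertain. No column was left unused, and no comparison of the authors was used.

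Counts were rounded to whole numbers and CPM computed on TMM effective library sizes of the joined 28 tumors. Tests used edgeR 4.0.16 in R 4.3.3 (quasi-likelihood, filterByExpr by group, TMM), 1 fit per matrix with all 4 groups, Benjamini-Hochberg adjustment over all genes tested, and calls at an adjusted p below 0.05 and an absolute log2 fold change above 0.5. The fit was tested on simulated data with known changes. Depth was 23541733 to 33950805 counts per tumor. Shares, sums and evenness were described with mean ± SD and no test. Wilson intervals have a 95% level, and floors are 3 counts. Thinning drew 100 seeded samples, and 31-base words are those of the reference transcripts. Levels per kilobase use the shortest annotated transcript.

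Alternatives were DESeq2 1.42.0 with its own test, its size factors in edgeR, no filter on low counts, only the 2 groups compared, a replicate block, each tumor left out, and other denominators, depths and indices for shares and evenness. Leaving 5-FU+ICB tumor 5 out of comparisons of other groups, and thinning to 50 counts, were added after seeing the data. Named genes were the 12 constant genes, the 5 heavy and 5 kappa V segments with the highest mean CPM and every lambda V segment, the top V segment of each tumor, per comparison the 3 called members in each direction with the largest change (mean count 50 or more), and any gene of the cell type lists. Igkv10-96, Igkv3-5 and the other segments named beside a count were also chosen after their values were seen. Some genes of these lists are not reported here. The members and lists were chosen with earlier results of these data known.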

Additional observations from a re-analysis of the deposited data

Results flagged for a closer look

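Within groups of 4 or 5 tumors, 143 group values were examined for a highest or lowest tumor that stands apart from the others by Dixon's criterion, and 34 had one. Chance gives about 1 in 20 for independent, normally distributed values, which these skewed CPM and shares of the same tumors are not, and some rest on 1 or 2 counts. Of these, 13 were set by 5-FU+ICB tumor 5, 7 by 5-FU tumor 3 and 14 by other tumors. In 5-FU+ICB tumor 5 the values were 5447 CPM summed over all members, 1283 CPM of IgG genes, 676.7 CPM of Ighm, 260.5 of Ighd, 1162 of Ighg1, 49.7 of Ighg2b, 54.0 of Ighg2c, 16.8 of Ighg3, 16.8 of Ighe, 2268 of Igkc, 23.9 of Iglc1, 40.6 of Iglc2 and 36.0 of Iglc3. In 5-FU tumor 3 they were 588.5 CPM summed over all members, 11.4 of Ighd, 4.05 of Ighg2b, 6.63 of Ighg3, 46.3 of Igha, 180.0 of Igkc and 19.1 of Iglc1.

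Cisplatin tumor 4 stood apart with 5.59 CPM of Ighd, 7.55 of Ighg1, 0.237 of Ighe and 0.799 of Iglc1, and with 1.91% of kappa V counts from Igkv10-94. PBS tumor 2 did so with 2.30 CPM of Ighg1 and 0.0678 of Ighe, and PBS tumor 4 with an Igkv10-94 share of 1.59%, which is 1 of 63 counts. Among 5-FU+ICB tumors, tumor 2 had the highest Igkv10-94 share, 2.04%, from 1 of 49 counts. In cisplatin+ICB, tumor 4 stood apart with 77.8% for the top heavy V segment, 48.9% for Igkv10-94 and 6.12 CPM of Ighg3, tumor 5 with 39.4 CPM of Ighg2b and tumor 2 with 0.0956 CPM of Ighe. The causes were not tested.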

How the results depend on the processing

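Counts of members called against PBS moved with several settings, and the cause was not tested. For ICB against PBS the 1 call of 27 became 2 of 17 in the cisplatin matrix (26.2% of all genes called), 4 of 13 with only these 2 groups in the fit (40.4%), 4 of 93 with DESeq2 and 0 of 27 with the replicate block (33.7%), and 0 to 3 when a tumor was left out (3 without 5-FU+ICB tumor 5, 2 without ICB tumor 4, 0 without ICB tumor 1 or any 1 of the PBS tumors). For 5-FU against PBS the 0 calls of 27 became 4 of 12 with only these groups (23.4%), 5 of 60 with DESeq2 and 0 to 4 when a tumor was left out (4 without 5-FU+ICB tumor 5). For 5-FU+ICB against PBS the 23 calls of 27 became 72 of 240 without a filter (18% of all genes called), 6 of 27 with the replicate block (35.8%), 9 of 16 with only these groups (30.2%), 50 of 98 with DESeq2 and 4 to 24 when a tumor was left out (4 without tumor 5). For 5-FU+ICB, DESeq2 called 12 of 60 against ICB and 8 of 45 against 5-FU, and leaving out a tumor gave 0 to 11 against 5-FU (11 without 5-FU+ICB tumor 2, where 10.9% of all genes were called). For cisplatin+ICB against PBS the 1 call of 17 became 0 with the replicate block (0.533%) or only these groups (0%), 9 of 42 with DESeq2 and 0 to 8 when a tumor was left out (8 without cisplatin+ICB tumor 1, with 35.3% of all genes, and 5 without tumor 3, with 8.91%), and against cisplatin 7 of 24 with DESeq2 and 0 to 6 (6 without cisplatin+ICB tumor 1, with 11.9%). Leaving out a PBS tumor also changed how many members passed the filter.

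The mean correlation of deviations was -0.0115 for 66 pairs of tumors with the same replicate number (range -0.779 to 0.717). For 260 pairs with other numbers it was 0.00652 (range -0.81 to 0.836). Why calls were lost in the blocked fit was not tested. The log2 difference of Ighm between 5-FU+ICB and 5-FU ran from -0.39 without 5-FU+ICB tumor 5 to 2.02 without 5-FU tumor 3. In cisplatin against PBS, Ighm ran from -0.47 without cisplatin tumor 4 to 0.012 and 0.022 without tumor 2 or 3, Ighg1 from -0.84 without cisplatin tumor 4 to 2.87 without PBS tumor 2, and Igkc from -0.99 to 0.69 without the same tumors. None of these differences had been called.

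Of switched isotypes alone, IgG took 23.2% in PBS, 58.4% in ICB, 37.9% in 5-FU, 31.4% in cisplatin, 67.7% in 5-FU+ICB and 71.2% in cisplatin+ICB, and IgA 76.7%, 41.6%, 62.1%, 68.2%, 31.3% and 28.7% in the same order. Heavy V evenness thinned to the lowest tumor total was 0.982 in PBS, 0.952 in ICB, 0.980 in 5-FU, 0.979 in cisplatin, 0.972 in 5-FU+ICB and 0.930 in cisplatin+ICB, and kappa V evenness 0.938 in PBS, 0.846 in ICB, 0.963 in 5-FU, 0.931 in cisplatin, 0.947 in 5-FU+ICB and 0.851 in cisplatin+ICB, or 0.910 in 5-FU+ICB thinned to 50. Simpson evenness of heavy V was 0.708 in PBS, 0.338 in ICB, 0.5001 in 5-FU, 0.749 in cisplatin, 0.383 in 5-FU+ICB and 0.328 in cisplatin+ICB, and of kappa V 0.499, 0.244, 0.485, 0.539, 0.326 and 0.309. Of the other values of single genes, 564 kept direction and call under an alternative, 94 lost a call and 18 gained one. Of sums, shares and evenness, 239 moved by less than 1 SD and 31 by 1 SD or more. Depth limits the V segments, with 5 heavy V counts in cisplatin tumor 3.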
